A study of Mus musculus with 6 samples.

Results

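The urea cycle turns ammonia, which is toxic, into urea that can be excreted, and in mammals the complete cycle runs mainly in hepatocytes. It begins in the mitochondrion, where N-acetylglutamate made by Nags switches on Cps1, Cps1 joins ammonia and bicarbonate into carbamoyl phosphate, and Otc passes the carbamoyl group to ornithine to give citrulline. It goes on in the cytosol, where Ass1 joins citrulline to aspartate, Asl splits the product into arginine and fumarate, and Arg1 cuts arginine into urea and ornithine. Slc25a15 exchanges ornithine and citrulline across the inner mitochondrial membrane, and Slc25a13 (citrin) exports the aspartate that Ass1 uses. These 6 enzymes and 2 carriers were chosen by gene symbol from the count table, and all 8 were found among its 40803 mouse genes and among the 16327 genes that were tested.

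RNA from the livers of 6 C57BL/6J mice was sequenced, 3 in the rAAV8-sh-scramble group and 3 in the rAAV8-sh-Hnf1aos1 group, with 1 library per mouse. Male mice of approximately 6 weeks received 100 µL of virus through the tail vein, were fed normally and were examined 4 weeks later. Recombinant adeno-associated virus of serotype 8 (rAAV8) is taken up by hepatocytes, and in both groups it carried a short hairpin RNA under the U6 promoter, which is active in many cell types, with an EGFP reporter under the CAG promoter. The hairpin was scrambled in one group and was directed against the long non-coding RNA Hnf1aos1 in the other, called the knockdown group below, and a single hairpin was used against the target.

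Libraries held 14704746 to 16532510 gene counts in the scramble group, with 18021614 to 19462398 in the knockdown group. Normalized counts of Hnf1aos1, the targeted gene, were 512, 491 and 620.3 in scramble replicates 1 to 3 and 278, 258 and 433 in knockdown replicates 1 to 3, a log2 fold change of −0.74 (SE 0.195, adjusted p = 0.0625 from edgeR). Hnf1aos1 was called by DESeq2 (adjusted p = 0.00321) and limma's voom (0.0418), and by edgeR without a filter on low counts (0.00564), without robust estimation (0.0461), with the replicate block (0.0138) and without knockdown replicate 3 (log2 fold change −1.01, adjusted p = 0.000261). By edgeR it was not called with library totals alone (adjusted p = 0.0528) or with library sizes from spike-in RNAs (0.0878). Nor was it with DESeq2 size factors (0.0614), with a mean of at least 50 counts (0.0584) or in the other fits without 1 library (0.113 to 0.218). A normalized count is a read count divided by the library's size after scaling by edgeR's TMM method. Fold changes are knockdown over scramble, and "called" means an adjusted p under 0.05 in the quasi-likelihood test of edgeR, with adjustment over all genes tested. Among the 16327 genes, 1032 (6.32%) were called, 505 higher and 527 lower; with library totals alone the split was 319 higher and 729 lower, and with library sizes from the spike-in RNAs 3030 and 364. The spike-ins took 1.46% ± 0.0727 of counts (SD, n = 3) in the scramble and 1.21% ± 0.0324 (SD, n = 3) in the knockdown libraries.

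None of the 8 urea cycle genes was called, against 6.32% of all genes tested. One of the 8, Asl, had an unadjusted p under 0.05, which 23.4% of all genes tested had, and DESeq2 called 1, again Asl, against 7.59% of the genes it tested. The median log2 fold change of the 8 genes was −0.044, with −0.0004 over all genes tested, and the median size of the change without its sign was 0.16 against 0.21. All genes tested include genes with far lower counts than the members, whose lowest count in any library was 754. Of the 8 genes, 4 had values above 0 (Nags, Cps1, Otc and Slc25a15) and 4 had values below 0 (Ass1, Asl, Arg1 and Slc25a13). This split did not hold with spike-in library sizes, where Ass1, Arg1 and Slc25a13 turned to just above 0. Nor did it hold with library totals, on TPM or without knockdown replicate 1, where Slc25a15 turned to just below 0. Without knockdown replicate 2, Nags turned to just below 0. The first set makes and exports citrulline in the mitochondrion, and the second supplies or carries out the steps in the cytosol. These sides were drawn with the values known. Slc25a13 is itself a mitochondrial carrier, so by location alone the signs did not divide the cycle. The 95% intervals of 7 of the 8 genes included 0. Over all 8, the intervals reached from 0.692-fold at the lowest to 1.37-fold at the highest, so that changes beyond these bounds lay outside the interval of every member.

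**Figure D1:**
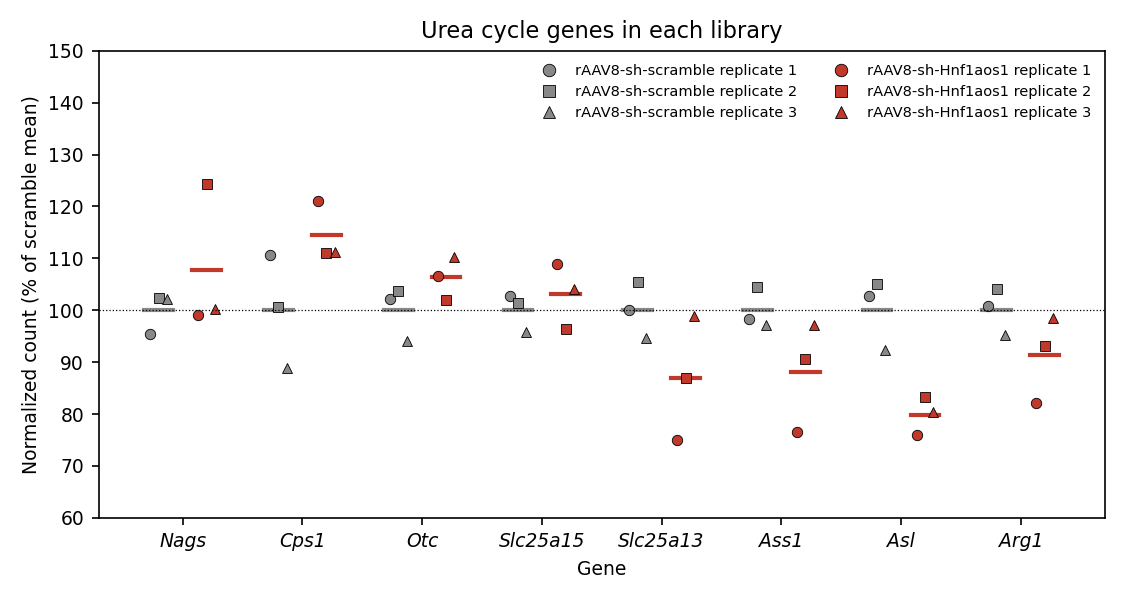
Normalized count of each urea cycle gene (x axis) in each library, as a percent of the gene's mean in the scramble group (y axis, which starts at 60%); points are libraries, and horizontal bars are group means (n = 3). The 3 knockdown libraries of Asl lie at 75.9%, 83.2% and 80.5%, below all scramble libraries, while those of Otc and Slc25a15 lie among or slightly above them.

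Promoter windows of RefSeq on GRCm38.p6 were found for 5 of the 8 members (Nags, Otc, Ass1, Slc25a15 and Slc25a13). Nags and Otc, both enzymes of the mitochondrial side, are shown because their upstream bases differ in composition: 55.6% of the 250 bases before the start of Nags and 43.6% of those before Otc were G or C, with a median of 52.4% over all windows. The member windows not shown were higher, at 75.6% for Ass1, 62.8% for Slc25a13, and 57.6% and 80.4% for Slc25a15. The 150 bases before each start are printed 5′ to 3′ on the + strand, from chr11:102145363-102145512 and chrX:10252155-10252304. Capitals mark the Sp1 letters GGGCGG in Nags and the loose C/EBP letters TTNNGNAA in Otc, each searched on both strands.
Nags: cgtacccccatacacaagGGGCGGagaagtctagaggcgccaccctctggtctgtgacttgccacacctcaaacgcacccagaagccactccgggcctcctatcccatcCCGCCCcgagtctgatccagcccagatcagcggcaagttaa
Otc: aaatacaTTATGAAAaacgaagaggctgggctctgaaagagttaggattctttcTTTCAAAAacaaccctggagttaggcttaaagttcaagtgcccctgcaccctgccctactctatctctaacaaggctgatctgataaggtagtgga

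Matches to the Sp1 letters were found in the windows of Nags, Ass1 and Slc25a15 and in 35.7% of all windows, and matches to the loose C/EBP letters in Nags and Otc and in 40.7% of all windows. The core of the cAMP response element, TGACG, was in Nags and Slc25a13 and in 20.8% of all windows. The stricter letters of C/EBP (TTGCGCAA, 0.183% of all windows), of the full cAMP response element (TGACGTCA, 1.79%), of HNF4 (CAAAGTCCA, 0.475%) and the TATA box (TATAAA, 13.6%) had no match in the member windows, and neither did the glucocorticoid response element (0.00913%). With only 6 member windows, the absence of such rare letters says nothing particular about the members. A match describes letters within 250 bases before and 50 bases after a start site and no more.

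The mitochondrial enzymes come first in the cycle. Nags, on the + strand of chromosome 11 (102145513 to 102149477; coordinates are those of GENCODE M21 on GRCm38), had 775, 831 and 829 normalized counts in scramble replicates 1 to 3 and 804, 1008 and 813 in knockdown replicates 1 to 3. Only knockdown replicate 2 stood above the scramble libraries, and the groups overlapped. The log2 fold change was 0.11 (SE 0.104, adjusted p = 0.567 from edgeR). An antisense gene, Gm11586, overlaps the start of Nags on the other strand and had 37 to 49 counts per library, 3.49% to 6.49% of the counts of Nags; whether strands were separated in counting is not given in the sources used here.

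Cps1, the rate-limiting entry enzyme and a very abundant protein of liver mitochondria, lies on the + strand of chromosome 1 (67123026 to 67231259). Its normalized counts were 96434, 87657 and 77393 in scramble livers 1 to 3 and 105575, 96691 and 96983 in knockdown livers 1 to 3. Every knockdown library was above every scramble library, by a narrow margin between knockdown replicate 2 and scramble replicate 1. Such a lack of overlap, in either direction, was found for 28.9% of all genes tested (15.2% higher and 13.7% lower). Means of the groups were 87161 ± 9530.2 (SD, n = 3) and 99749.7 ± 5047 (SD, n = 3), and the log2 fold change was 0.19 (SE 0.119, 95% interval −0.067 to 0.46, adjusted p = 0.352 from edgeR). Cps1 was called in 1 alternative, with library sizes from the spike-ins (log2 fold change 0.40, adjusted p = 0.04996 from edgeR), under which the median of all genes itself moved to 0.20.

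Otc, the X-linked ornithine transcarbamylase (chromosome X, + strand, 10252305 to 10321024), had 6285, 6379 and 5789 normalized counts in scramble livers 1 to 3 and 6560.1, 6274 and 6787 in knockdown livers 1 to 3. Knockdown replicate 2 was below scramble replicate 1, so that the groups overlapped, and the log2 fold change was 0.088 (SE 0.0928, adjusted p = 0.605 from edgeR). Slc25a15, the ornithine carrier (chromosome 8, − strand, 22375551 to 22398597), had 5073, 5006 and 4726 normalized counts in scramble livers and 5372, 4753 and 5139 in knockdown livers 1 to 3. Its groups overlapped and its log2 fold change, 0.044 (SE 0.0925, adjusted p = 0.817 from edgeR), was the closest to 0 of the 8. The sign for Slc25a15 turned with library totals alone and on the TPM values, to −0.026 and −0.034.

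The cytosolic enzymes follow. Ass1, argininosuccinate synthase (chromosome 2, + strand, 31470207 to 31520672), had 41911, 44478 and 41409 normalized counts in scramble livers 1 to 3 and 32640.1, 38617 and 41378 in knockdown livers 1 to 3. All knockdown libraries were lower, but knockdown replicate 3 was nearly level with scramble replicate 3. Means of the groups were 42599 ± 1647 (SD, n = 3) and 37545 ± 4467 (SD, n = 3), and the log2 fold change was −0.18 (SE 0.117, 95% interval −0.44 to 0.073, adjusted p = 0.373 from edgeR). Gm5424, a processed pseudogene on chromosome 10, matches 1240 bases of Ass1 at 99.5% identity, and reads that fit both would have been lost as not uniquely mapped. Its own counts were 233 to 333 per library, 0.674% to 0.822% of those of Ass1.

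Asl, argininosuccinate lyase (chromosome 5, − strand, 130011258 to 130029247), was the member nearest to a call. Its normalized counts were 5487, 5610.0 and 4937 in scramble livers 1 to 3 and 4059, 4449 and 4300.4 in knockdown livers 1 to 3. The knockdown libraries lay close together and all below the scramble libraries, and the exact two-sided permutation test gave p = 0.1, the smallest that 3 against 3 allow. Cps1 and Ass1 had the same permutation p, which any gene without overlap between groups reaches (28.9% of all genes tested). Means of the groups were 5345 ± 358 (SD, n = 3) and 4269 ± 197 (SD, n = 3). The log2 fold change was −0.32 (SE 0.0943, 95% interval −0.53 to −0.12, adjusted p = 0.0656 from edgeR), or 0.799 times the scramble level. The call depended on the procedure: DESeq2 called Asl (adjusted p = 0.0396), and so did edgeR with library totals alone, without a filter on low counts or with a mean of at least 50 counts (adjusted p from 0.0209 to 0.042) and limma on log2 TPM with 0.1 or 1 added (adjusted p = 0.0336 and 0.0326). It was not called with limma's voom (adjusted p = 0.0652), with the spike-ins (adjusted p = 0.447) or in the 6 edgeR fits that each left out 1 library (adjusted p from 0.0759 to 0.163). The share of all genes called was 6.42% with library totals, 6.92% without a filter, 6.93% with a mean of at least 50 counts, 3.64% and 3.93% on TPM, 5.52% with voom and 20.8% with the spike-ins. It was 3.74%, 2.34% and 0.619% without scramble replicate 1, 2 or 3, and 3.77%, 1.93% and 11.2% without knockdown replicate 1, 2 or 3. DESeq2 size factors in edgeR, a fit without robust estimation and one with the replicate number as a block called 6.32%, 6.38% and 5.38% of genes and did not call Asl.

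Arg1, the liver arginase that releases urea (chromosome 10, − strand, 24915221 to 24927484), had 14616, 15089 and 13796 normalized counts in scramble livers 1 to 3 and 11914, 13513 and 14292 in knockdown livers 1 to 3. Knockdown replicates 1 and 2 were below the scramble libraries and knockdown replicate 3 was among them. The log2 fold change was −0.13 (SE 0.105, adjusted p = 0.485 from edgeR). Slc25a13, the aspartate and glutamate carrier (chromosome 6, − strand, 6041218 to 6217173), had 3910.1, 4121 and 3701 normalized counts in scramble livers and 2936, 3399 and 3869 in knockdown livers 1 to 3. Here too knockdown replicate 3 lay among the scramble libraries, and the log2 fold change was −0.20 (SE 0.111, adjusted p = 0.301 from edgeR). In Ass1, Arg1 and Slc25a13 the knockdown libraries came in the same order, with replicate 1 lowest and replicate 3 highest.

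**Figure D2:**
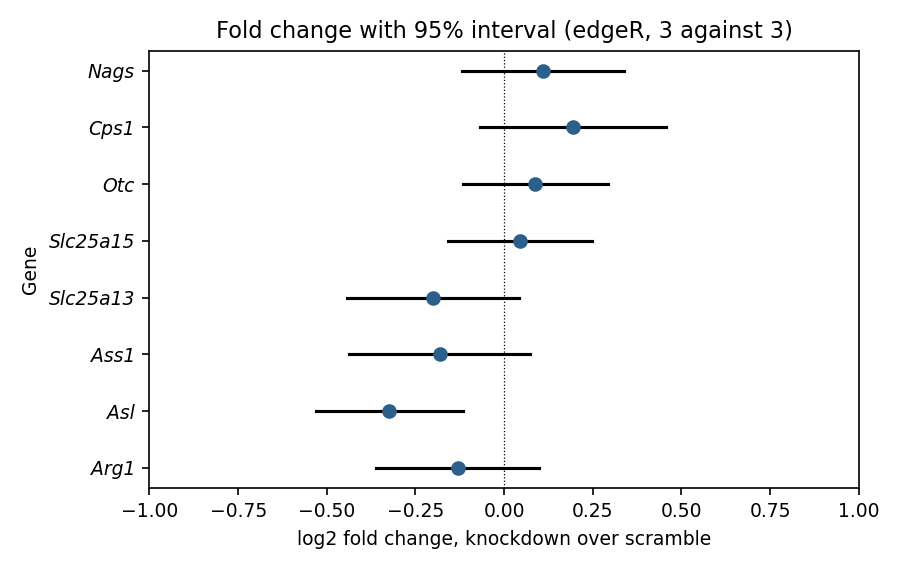
log2 fold change of each urea cycle gene, knockdown over scramble (x axis), with points for the edgeR estimate and lines for its 95% interval. The interval of Asl, −0.53 to −0.12, lies below 0, and those of the other 7 genes cross 0.

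The counting coefficient of variation of the library with the fewest counts was 3.64% for Nags, the highest of the 8 genes, and 0.377% for Cps1, the lowest. Between mice the coefficient of variation of the 8 genes ran from 3.73% to 10.9% in the scramble group and from 3.94% to 13.7% in the knockdown group. It was larger in the knockdown group for 5 of the 8 genes.

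The balance between the mitochondrial and the cytosolic genes was then read within each library, as the ratio of the read counts of 2 genes, which does not depend on how libraries are scaled. This grouping was chosen with the values known and is a description, with no test. The ratio of Cps1 to Asl was 17.6, 15.6 and 15.7 in scramble livers 1 to 3 and 26, 21.7 and 22.6 in knockdown livers 1 to 3. The ratio of Otc to Asl was 1.15, 1.14 and 1.17 in scramble livers 1 to 3, with little spread between mice, and 1.62, 1.41 and 1.58 in knockdown livers 1 to 3. For Cps1 to Ass1 the values were 2.30, 1.97 and 1.87 against 3.23, 2.50 and 2.34, and knockdown replicate 3 was only just above scramble replicate 1. In all 3 ratios every knockdown library was above every scramble library.

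Of the 16 ratios of a mitochondrial to a cytosolic member, with Slc25a13 counted on the cytosolic side that it supplies, 13 were higher in every knockdown library than in any scramble library, and the 3 others were those of Nags to Ass1, Arg1 and Slc25a13. The differences of the 16 ratios ran from 0.18 to 0.52 on the log2 scale. The 16 ratios share their 8 genes, and 27.9% of all pairs of tested genes with counts in every library had ratios that did not overlap in one direction or the other. Because the sides were drawn with the values known, that share over unselected pairs cannot serve as a test of the 13. Within the mitochondrial side 0 of 6 ratios separated the groups, and within the cytosolic side 1 of 6 did, that of Asl to Arg1, which was lower after knockdown. The ratio of Ass1 to Arg1 was 2.94 ± 0.0675 (SD, n = 3) with scramble and 2.83 ± 0.0811 (SD, n = 3) with knockdown, with overlapping groups.

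**Figure D3:**
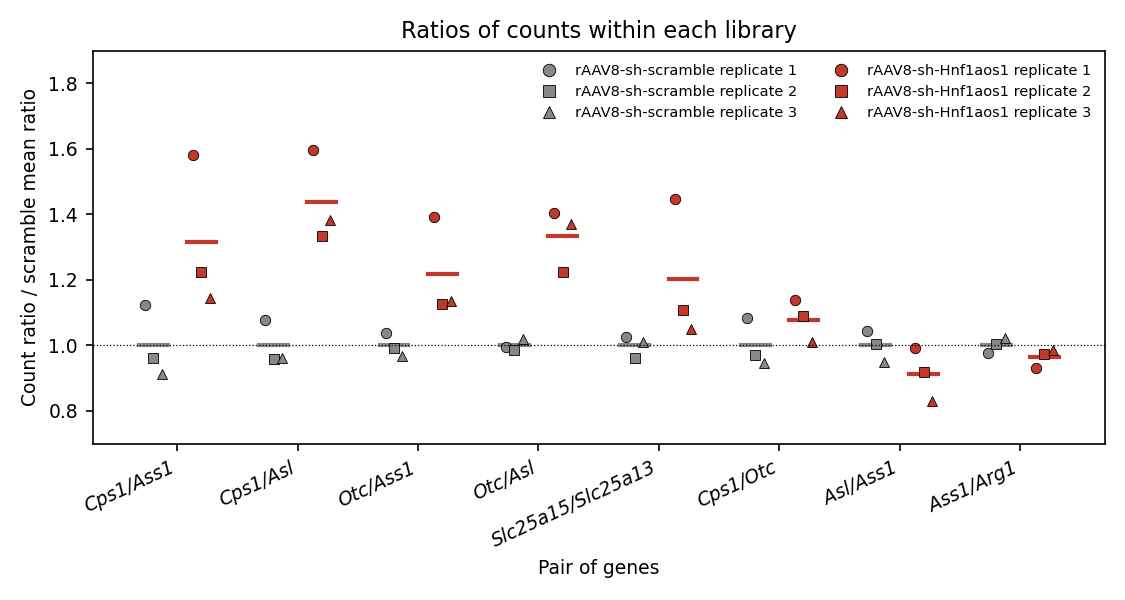
Ratio of the read counts of 2 urea cycle genes within each library (x axis, pairs), divided by the mean ratio of the scramble group (y axis, which starts at 0.7); points are libraries, and bars are group means (n = 3). The 5 pairs on the left set a mitochondrial against a cytosolic member, with the mitochondrial carrier Slc25a13 counted on the cytosolic side that it supplies. These 5 pairs lie above the scramble libraries in all knockdown libraries, and the 3 pairs on the right, within 1 side, overlap between the groups. The pairs shown are a selection. Among those not shown, the ratios of Nags to Ass1, Arg1 and Slc25a13 overlapped, and that of Asl to Arg1, within 1 side, separated the groups.

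Levels can be compared between genes only per transcript length, for which the deposited TPM values (transcript abundances per length, scaled to the same total in each library) were used. In the scramble group Ass1 was highest with 3402 ± 83.7 TPM (SD, n = 3), followed by Cps1 with 2009 ± 179.9, Arg1 with 1279 ± 22.8, Asl with 294 ± 11.5, Otc with 190.1 ± 4.47, Slc25a15 with 170.3 ± 2.55, Slc25a13 with 107 ± 3.01 and Nags with 50.03 ± 2.79. No neighbours in this order overlapped between the 3 scramble libraries. The mean levels of the highest and the lowest member were 68.0-fold apart. By mean TPM over the 6 libraries, Ass1 ranked 46 and Cps1 61 among all genes, and Nags, whose product only activates Cps1, ranked 1807. The order of the means was the same in the knockdown group, where Otc (192 ± 10.7 TPM, SD, n = 3) and Slc25a15 (167 ± 15.4) were the only neighbours that overlapped.

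Together the 8 genes made up 0.761%, 0.758% and 0.731% of all TPM in scramble livers 1 to 3 and 0.674%, 0.673% and 0.708% in knockdown livers 1 to 3, lower in all of the latter. The sum mostly reflects Ass1, Cps1 and Arg1, the members with the highest TPM. Mean TPM of Ass1 was 3402 with scramble and 2839 with knockdown, and that of Arg1 1279 and 1106. Cps1 went the other way, with 2009 and 2186. The sum therefore does not stand for a shared fall of the 8 genes. As a share of read counts, which gives weight to long transcripts such as Cps1, they held 0.989% ± 0.043 (SD, n = 3) and 0.973% ± 0.0235 (SD, n = 3), with overlapping groups. On the TPM scale the median change over all genes was −0.074 with 0.1 added before taking log2, so that part of the TPM difference is shared with most genes.

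**Figure D4:**
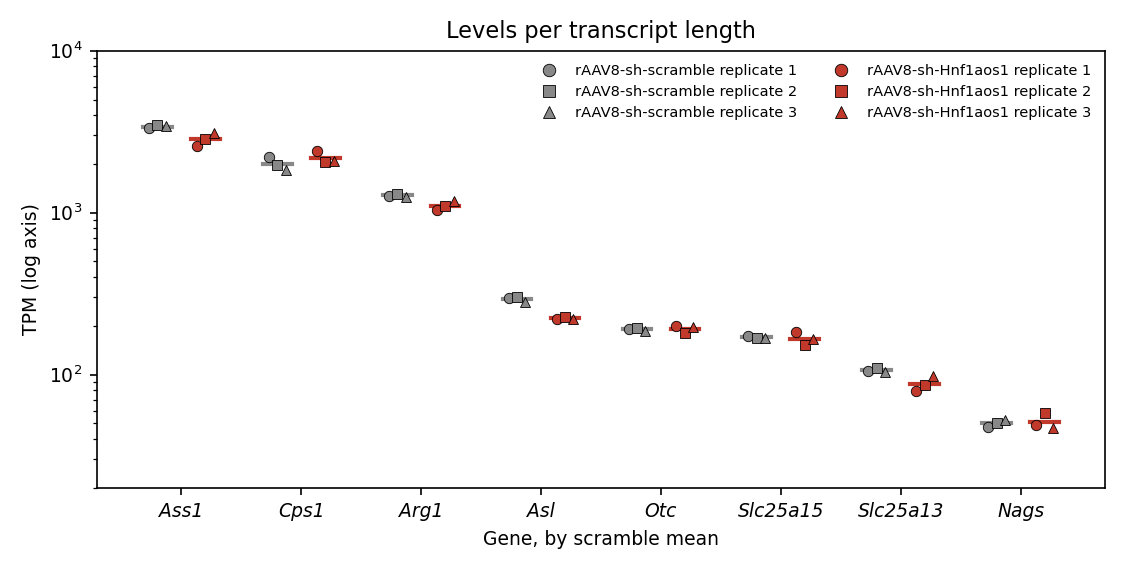
TPM of each urea cycle gene in each library on a log axis (y axis), with genes ordered by their scramble mean (x axis); points are libraries, and bars are group means (n = 3). Ass1, Cps1 and Arg1 lie between 1036 and 3477 TPM in all 6 libraries, and the other 5 genes between 46.8 and 302 TPM.

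The pathways next to the cycle were read from lists written from general knowledge. Among genes that supply or remove ammonia, 0 of 9 tested were called. The share over all genes tested was 6.32%, for this list and those below. Gls2, the liver glutaminase that releases ammonia beside the cycle, had a log2 fold change of −0.37 (SE 0.143, adjusted p = 0.146 from edgeR), and Glul, which captures leftover ammonia as glutamine around the central vein, had 0.038 (SE 0.122, adjusted p = 0.885 from edgeR). Asns, asparagine synthetase, was the furthest above 0 in this list, with 0.97 (SE 0.605, adjusted p = 0.384 from edgeR) and overlapping groups, and ranged from 0.57 (without knockdown replicate 2) to 1.87 over the fits without 1 library. Among genes that recycle aspartate and fumarate, 0 of 11 were called, and the value furthest below 0 was that of Slc25a10, the dicarboxylate carrier, with −0.59 (SE 0.181, adjusted p = 0.096 from edgeR). Slc25a10 was called by DESeq2 (adjusted p = 0.00952), and by edgeR without a filter (0.0493), with the replicate block (0.0439) and without scramble replicate 1 (0.026). The value furthest above 0 there was that of Adsl, adenylosuccinate lyase, with 0.37 (adjusted p = 0.101 from edgeR), called only with the spike-ins (adjusted p = 0.0101). Among amino acid transporters of hepatocytes 0 of 15 were called, and Slc43a1, a carrier of branched-chain amino acids, was the furthest above 0 (0.37, SE 0.429, adjusted p = 0.653 from edgeR). The value of Slc43a1 rested on single libraries, since it was 0.0082 without scramble replicate 1 and 0.86 without scramble replicate 2. Slc7a2, which takes up arginine and ornithine and was the furthest below 0, had 12839, 13443 and 11749 normalized counts in scramble livers 1 to 3 and 6375, 8072 and 12235 in knockdown livers 1 to 3, a log2 fold change of −0.51 (SE 0.218, adjusted p = 0.21 from edgeR), and of its alternatives only the fit without knockdown replicate 3 called it (log2 fold change −0.81, adjusted p = 0.00146).

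Genes that use ornithine, arginine and proline held 3 calls among 20 tested, 2 higher and 1 lower, against 3.09% of all genes called higher and 3.23% called lower. Odc1, which turns ornithine into putrescine and so starts polyamine synthesis, had 779.8, 721 and 622 normalized counts in scramble livers 1 to 3 and 996, 1169 and 1348 in knockdown livers 1 to 3. It rose by 0.73 on the log2 scale (SE 0.124, adjusted p = 0.00997 from edgeR). Sat1, the acetyltransferase that starts polyamine breakdown and export, had 354, 356 and 367 normalized counts in scramble livers and 659.9, 569 and 456 in knockdown livers 1 to 3, and rose by 0.65 (SE 0.128, adjusted p = 0.0169 from edgeR). Both genes were higher in every knockdown library. Prodh2, a hydroxyproline dehydrogenase of mitochondria, fell to 1324 ± 181 normalized counts (SD, n = 3), from 1917 ± 46.0 in the scramble group (log2 fold change −0.53, SE 0.106, adjusted p = 0.0169 from edgeR). Srm, the spermidine synthase, had an uncalled value of 0.51 (adjusted p = 0.0578 from edgeR), and was called by DESeq2 (adjusted p = 0.0445) and by edgeR with the spike-ins (0.0068), without a filter (0.00232), with the replicate block (0.0405) and without knockdown replicate 2 (0.0416). Ddah2, which breaks down methylated arginine, had −0.74 (adjusted p = 0.295 from edgeR). Odc1 lost its call in the fit without scramble replicate 3 (adjusted p = 0.0793), Prodh2 in 3 of the 6 fits without 1 library and with the spike-ins (adjusted p = 0.063), and Sat1 in 4.

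Of 19 genes for transamination and amino acid deamination, which deliver nitrogen to the cycle, Tat was called lower and none higher. Over all genes tested, 3.23% were called lower and 3.09% higher. Tat, the tyrosine aminotransferase, had 28789, 26735 and 27094 normalized counts in scramble livers 1 to 3 and 19056, 14807 and 16196 in knockdown livers 1 to 3, with a wide gap between the groups and a log2 fold change of −0.72 (SE 0.116, adjusted p = 0.00766 from edgeR). The median of the 19 genes was −0.13 on the log2 scale, and the uncalled values furthest from 0 were those of Bcat2 (−0.31, adjusted p = 0.0978 from edgeR) and Dld (0.15, adjusted p = 0.401 from edgeR; 0.0493 with the spike-ins). Of 18 known or supposed regulators of urea cycle genes, Klf15 was called lower and none higher, beside the same 3.23% and 3.09% of all genes. Klf15, a zinc finger factor of amino acid breakdown and fasting metabolism, had 2062, 1858 and 1961 normalized counts in scramble livers and 1073, 1098 and 1467 in knockdown livers 1 to 3 (log2 fold change −0.69, SE 0.121, adjusted p = 0.0106 from edgeR). Tat and Klf15 each kept the call in 5 of the 6 fits without 1 library and lost it without scramble replicate 3 (adjusted p = 0.0523 and 0.0772).

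Other regulators of the cycle were not called. Cebpa, a leading activator of Cps1, Otc and Arg1, had a log2 fold change of 0.25 (SE 0.104, adjusted p = 0.172 from edgeR), the glucocorticoid receptor gene Nr3c1 had 0.25 (SE 0.0947, adjusted p = 0.141 from edgeR), and Cebpb had 0.80 (SE 0.276, adjusted p = 0.15 from edgeR). Cebpb was called by DESeq2 (adjusted p = 0.00532) and by edgeR without knockdown replicate 1 (log2 fold change 1.02, adjusted p = 0.0203). Of the 18 regulators, 4 had no overlap between groups with higher values after knockdown (Cebpa, Cebpb, Nr3c1 and Sp1) and 4 with lower ones (Creb1, Crtc2, Ppargc1a and Klf15). Over all genes tested, 15.2% had no overlap with higher and 13.7% with lower values. In Cebpb the groups were separated only by 399.6 against 399.1 normalized counts. Ppargc1a, a coactivator of fasting metabolism, had −0.34 (adjusted p = 0.165 from edgeR). Hnf4a, a nuclear receptor of hepatocytes, had −0.085 (SE 0.122, adjusted p = 0.724 from edgeR).

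**Figure D5:**
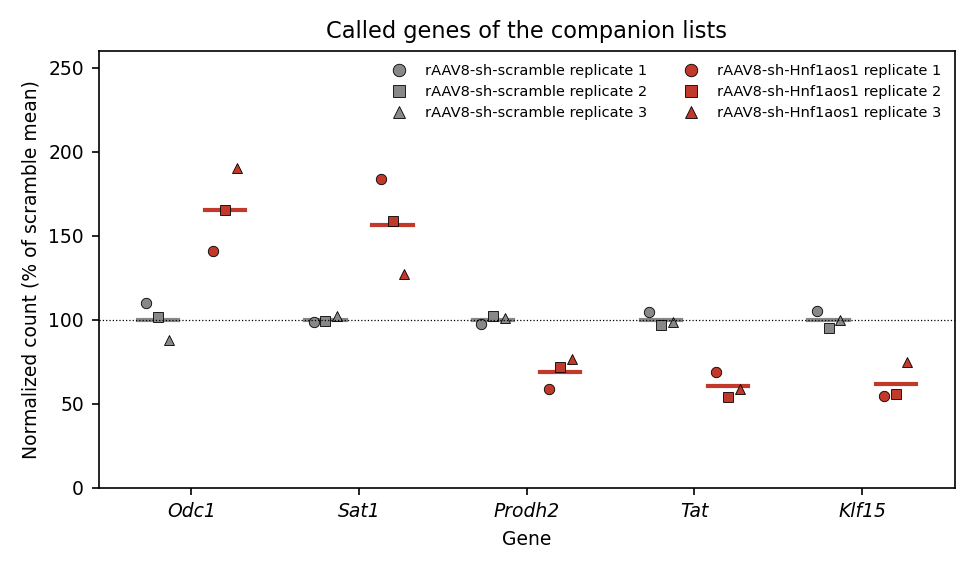
Normalized count of the 5 called genes of the neighbouring pathways (x axis) in each library, as a percent of the gene's scramble mean (y axis); points are libraries, and bars are group means (n = 3). Odc1 and Sat1 lie above, and Prodh2, Tat and Klf15 below, all scramble libraries in each knockdown library.

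The cycle is strongest around the portal vein, and markers of both liver zones were therefore read beside it. Of 11 periportal genes 0 were called, with a median log2 fold change of 0.089, and of 11 pericentral genes 0 were called, with a median of −0.34. Over all genes tested, 6.32% were called, 3.09% higher and 3.23% lower, which also applies to the cell type lists below. The values furthest above 0 were those of Cdh1 (0.33, adjusted p = 0.0604 from edgeR) among the periportal and Rhbg (0.68, adjusted p = 0.0977 from edgeR) among the pericentral genes, and Gls2 and Axin2 (−0.76, adjusted p = 0.0841 from edgeR) were the furthest below 0. Of these 4, Rhbg, Cdh1, Axin2 and Gls2 were each called when low counts were kept (adjusted p = 0.0166, 0.0333, 0.00345 and 0.0191 from edgeR), Rhbg and Cdh1 also with the spike-ins, Axin2 also by DESeq2, and Rhbg and Axin2 each in 1 fit without 1 library. A count over whole liver does not tell fewer cells of a zone or type from less RNA in each cell. Of the 9 hepatocyte markers tested, 2 were called higher, Fgb and Ahsg, and the summed TPM of the list was 88528 to 96086 with scramble and 91288 to 102429 with knockdown. Of the 12 Kupffer cell and macrophage markers, 5 were called higher (Adgre1, Clec4f, C1qa, C1qb and Lyz2), against 3.09% of all genes tested. All 12 had values above 0, with summed TPM of 319 to 384 in scramble livers and 397 to 499.6 in the knockdown libraries. No marker was called for sinusoidal endothelium (0 of 9; 188 to 191 and 154 to 182 TPM), stellate cells (0 of 10; 258 to 326 and 205 to 276 TPM), cholangiocytes (0 of 5; 40.1 to 43.6 and 44.9 to 187 TPM), lymphocytes and neutrophils (0 of 8; 17.1 to 23.1 and 18.9 to 26.2 TPM), erythroid cells (0 of 6; 374 to 413 and 349 to 452 TPM) or skeletal muscle (0 of 6; 53.7 to 186 and 21.4 to 64.1 TPM). Values were below 0 for 10 of 10 stellate cell, 8 of 9 endothelial and 6 of 6 muscle markers (median −1.32 for muscle), and above 0 for 7 of 8 lymphocyte and neutrophil and 8 of 9 hepatocyte markers. These signs are those with TMM scaling, where the median was −0.23 for stellate cell and −0.083 for endothelial markers. They were not counted with spike-in library sizes, under which the median of all genes was 0.20. Of the 5 markers of kidney tubule, another tissue that expresses Ass1 and Asl, 0 passed the filter on low counts, and their summed TPM was at most 0.437. The part of these cell types in the values of the urea cycle genes was not tested.

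By a fixed rule, the 5 genes whose log2 CPM, counts scaled for depth, over the 6 libraries were most like the mean pattern of the 8 members were Prxl2c, Rhoa, Lclat1, Tbca and Rhot2, with Pearson's r from 0.978 to 0.996. These values describe 6 libraries that share their scaling, and none of the 5 genes was called. The members did not share a pattern, so that their mean stands for no single member. Pearson's r over the 6 libraries was −0.63 between Cps1 and Ass1 and 0.98 between Ass1 and Arg1.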

How the data were processed

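Liver RNA of 6 mice was sequenced as paired reads of 150 bases. The methods describe a stranded poly(A) kit, but ribosomal RNA depletion is given in the labels. Reads were trimmed (Trimmomatic), aligned (STAR) and counted by the authors with featureCounts, from exonic reads with a unique position. The methods name GRCm38 and the submitters' processing notes GRCm39, while the annotation release and strand setting are not given in the sources used here. The symbols of 37492 of 40803 genes matched RefSeq on GRCm38.p6 and 28960 matched GENCODE M21. The deposited raw counts are not normalized, and the deposited TPM values are scaled by the authors to the same total in each library by a method not stated. The authors' normalized counts and their table of fold changes and p-values were not used. No column was left unassigned.

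The 92 ERCC spike-in rows were left out. Groups were compared by robust quasi-likelihood fits of edgeR 4.0.16 (R 4.3.3) without covariates, after filterByExpr and TMM scaling, and p-values were adjusted by Benjamini-Hochberg. DESeq2 1.42.0 and limma 3.58.1 served as alternatives, the latter also on log2 TPM with 0.1 or 1 added. The filter, the scaling, the replicate block, robust estimation and each library in turn were varied as well. log2 CPM used a prior count of 2. Member transcripts were searched against all GENCODE M21 transcripts with BLAST+ 2.17.0 (at least 150 bases at 90% identity). Figures were drawn with matplotlib 3.10.9. The scripts were tested on simulated data.

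Genes named with values are the 8 members, Hnf1aos1, each called gene of the neighbouring lists, the uncalled genes furthest from 0 in each list, and the 5 genes most like the members' mean pattern with a mean of at least 1 on the log2 CPM scale. Glul, Cebpa, Nr3c1, Sp1, Creb1, Crtc2, Hnf4a, Fgb, Ahsg and the 2 genes similar in sequence were named later, and 1 gene of the regulator list is not reported here. The members and lists were chosen with earlier results of these data known. Chi-square statistics of library pairs within a group were 7.10 to 28.7 per gene, above sampling noise, so that each library counted as 1 replicate.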

Additional observations from a re-analysis of the deposited data

How the results depend on the processing

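The number of urea cycle genes called, 0, became 1 with library totals alone, without a filter on low counts, with a mean of at least 50 counts and with DESeq2, which in each case was Asl (also called by limma on log2 TPM), and 1 with library sizes from the spike-ins, which was Cps1; it was 0 in each of the 6 fits without 1 library. The cause of these changes was not tested. Library sizes from the spike-ins moved the median of all genes to 0.20 on the log2 scale and turned the sign of Ass1 (0.019), Arg1 (0.070) and Slc25a13 (0.0005). Relative to that median the values were −0.18, −0.13 and −0.20, and those of Cps1 and Asl 0.19 and −0.32. Slc25a15 changed sign with library totals (−0.026) and on log2 TPM with 0.1 or 1 added (−0.034 and −0.033). Over the fits without 1 library, Slc25a15 ranged from −0.0041 to 0.094 and Nags from −0.0020 to 0.16. The nearest to 0 were Cps1 at 0.11 and Otc at 0.041 without scramble replicate 3, and Ass1 at −0.098, Arg1 at −0.068 and Slc25a13 at −0.11 without knockdown replicate 1. The furthest were Cps1 at 0.28 without scramble replicate 1, Otc at 0.12 without knockdown replicate 2, and Ass1 at −0.26, Arg1 at −0.19 and Slc25a13 at −0.30 without knockdown replicate 3. The other 128 of the 136 member values kept their direction.

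Over all genes, 1032 calls became 3394 with library sizes from the spike-ins, 1902 without a filter on low counts, and 103 (without scramble replicate 3) to 1881 (without knockdown replicate 3) with 1 library left out. The replicate numbers did not pair the livers: correlations of same-numbered deviations from the group means were −0.0226, 0.0231 and 0.00321, and not every library correlated best with its own number. With the replicate block 878 genes and 0 members were called. In Nags the counting coefficient of variation (3.64%) was close to that between the scramble mice (3.95%).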
